A study of Mus musculus with 16 samples.

Results

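NRF2, encoded by Nfe2l2, and 9 genes tied to it were followed across nuclear RNA libraries of mouse colon. The 10 genes were Nfe2l2, its regulators Keap1 and Bach1, and the antioxidant genes Nqo1, Hmox1, Gclc, Gclm, Txnrd1, Srxn1 and Slc7a11. All 10 were found, by symbol, among the 51912 genes of the deposited table. Nfe2l2 was chosen by its higher measured level after agonist in neuronal nuclei, so its values in that contrast are a description and carry no test. The other 9 were taken for their known place in the pathway, at a time when earlier results of these data were known.

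NRF2 is a transcription factor that KEAP1, an adaptor of a ubiquitin ligase, marks for degradation in unstressed cells. Oxidants and electrophiles modify KEAP1, NRF2 then accumulates, pairs with a small MAF protein and binds antioxidant response elements, while BACH1, a heme-sensing repressor, occupies the same elements. The targets make and recycle glutathione and thioredoxin, reduce quinones and break down heme. Much of this control acts on the NRF2 protein, which RNA does not measure, and Nqo1 is a known target of the aryl hydrocarbon receptor (AhR) as well as of NRF2.

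The study injected C57BL/6 mice, kept specific pathogen-free, with 3-methylcholanthrene, an AhR agonist, or with corn oil, 14 hours before nuclei were isolated. All mice had received AAV9-CaMKII-EGFPKASH, a virus that puts a green tag on the nuclear envelope under the CaMKII promoter, 5 weeks before the longitudinal muscle and its myenteric plexus were peeled from the colon. Sorting gave 4 groups of 4 libraries: EGFP+ (neuronal) nuclei after agonist, EGFP+ nuclei after corn oil, EGFP- (non-neuronal) nuclei after agonist and EGFP- nuclei after corn oil. The tag marks nuclei that took up the virus and used that promoter, so an untagged neuron falls in the non-neuronal group. The labels give no age, sex or dose, nor whether the 4 libraries came from separate mice or from pools, so that p-values measure the spread between these libraries, which may be technical. Groups were taken from the sample titles, which name no genotype. The headers of the deposited counts carry a project name about enteric neurons of wild-type and AhR knockout mice.

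Each library held 2663738 to 4902303 counts. Summed pan-neuronal markers lay between 3967 and 4761 CPM (counts scaled to library size) in the 8 neuronal libraries and between 67.1 and 536 CPM in the 8 non-neuronal ones. Smooth muscle markers, in contrast, summed to 224 to 1104 CPM in neuronal libraries and 1747 to 12850 CPM in non-neuronal ones. Mitochondrially encoded genes took 1.77% to 6.11% of neuronal counts and 10.3% to 42.8% of non-neuronal counts, with 42.8% and 33.3% in non-neuronal agonist libraries 1 and 2. Neuronal agonist library 1 had the fewest genes above 0, 17293. Cyp1a1, the best known AhR target, had 10, 28, 25 and 29 counts in the neuronal agonist libraries and 0 in every neuronal corn oil library. It had 31, 19, 623 and 712 counts in the non-neuronal agonist libraries, against 0, 0, 1 and 0 counts in the non-neuronal corn oil libraries. Cyp1a1 was 1 of 4 AhR genes taken as a check that the agonist acted, with Cyp1b1, Ahrr and Tiparp. In each population 3 of them could be tested by edgeR. In neuronal nuclei 0 were called (0% of all genes tested were) and 3 had log2 fold changes above 0 (55.3% were). In non-neuronal nuclei 1 was called, higher after agonist (0.0135% of all genes tested were called), and 2 were above 0 (55.7% were).

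Promoters were searched for the antioxidant response element core TGACNNNGC, to which NRF2 binds, and for the core GCGTG, to which AhR binds with its partner ARNT. Shown are Nfe2l2, Gclm and Srxn1, which hold an antioxidant core in their only window, and Bach1, which like Gclm holds 3 AhR cores. The windows are those of RefSeq on GRCm38.p6, 250 bases before to 50 after a gene's start, read 5′ to 3′ on the gene's strand. Capitals mark the antioxidant core and the AhR core on either strand. Nfe2l2 lies at chr2:75704614-75704913 (minus strand), Bach1 at chr16:87698704-87699003 (plus), Gclm at chr3:122245307-122245606 (plus) and Srxn1 at chr2:152105274-152105573 (plus).
Nfe2l2: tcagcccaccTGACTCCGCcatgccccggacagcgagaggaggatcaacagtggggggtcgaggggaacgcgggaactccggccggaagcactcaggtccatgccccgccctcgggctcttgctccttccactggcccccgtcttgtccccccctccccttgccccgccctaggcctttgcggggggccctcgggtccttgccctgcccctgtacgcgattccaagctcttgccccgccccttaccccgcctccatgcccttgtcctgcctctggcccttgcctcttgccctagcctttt
Bach1: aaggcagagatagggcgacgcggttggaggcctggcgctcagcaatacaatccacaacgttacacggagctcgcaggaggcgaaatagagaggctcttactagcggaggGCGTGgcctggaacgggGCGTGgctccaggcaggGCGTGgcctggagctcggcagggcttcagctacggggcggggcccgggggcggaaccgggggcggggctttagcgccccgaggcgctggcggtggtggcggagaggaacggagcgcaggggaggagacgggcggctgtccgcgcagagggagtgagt
Gclm: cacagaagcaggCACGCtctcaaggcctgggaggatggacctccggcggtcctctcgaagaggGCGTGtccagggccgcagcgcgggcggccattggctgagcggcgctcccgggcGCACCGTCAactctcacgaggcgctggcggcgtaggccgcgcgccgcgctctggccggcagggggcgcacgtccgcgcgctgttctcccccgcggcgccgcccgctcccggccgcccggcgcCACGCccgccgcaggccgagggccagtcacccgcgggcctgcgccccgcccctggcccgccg
Srxn1: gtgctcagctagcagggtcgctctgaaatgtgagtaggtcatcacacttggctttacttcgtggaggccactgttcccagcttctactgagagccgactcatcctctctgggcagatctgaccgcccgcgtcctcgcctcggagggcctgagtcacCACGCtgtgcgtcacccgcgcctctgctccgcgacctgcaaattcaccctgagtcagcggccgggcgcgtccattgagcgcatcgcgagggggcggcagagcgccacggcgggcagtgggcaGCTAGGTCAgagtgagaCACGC

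Windows were found for 8 of the 10 genes, which had 10 windows between them. The antioxidant core stood in 4 of these genes. In Nfe2l2 it read TGACTCCGC and lay 240 to 232 bases before the start. Gclm had it on the minus strand at 134 to 126 bases before the start, and Srxn1 on the minus strand at 29 to 37 bases after it. One of the Txnrd1 windows held it as well, on the minus strand at 92 to 84 bases before the start. Of all 32851 RefSeq windows of this length, 12.4% held this core on either strand. The AhR core is shorter and more frequent, with 32.4% of all windows holding it. It occurred in Keap1, Bach1, Gclm, Txnrd1 and Srxn1. Bach1 carried it 3 times, beginning 141, 124 and 107 bases before the start. Gclm carried it 3 times as well, and Keap1, Srxn1 and one of the Txnrd1 windows 2 times each, while 11.1% of all windows held 2 or more. The AP-1 motif TGANTCA, which resembles the antioxidant core and was found in 7.8% of windows, occurred in Srxn1 only, with 2 matches. The windows of Nqo1 and Slc7a11 held none of the 3 letter strings, and no match overlapped one of another motif as spelled here. In Srxn1 the AP-1 match TGAGTCA at -45 to -39 from the start is followed directly by the letters g and c. That stretch departs from the antioxidant core only in having G where the core has C after TGA. Other spellings of the antioxidant core were not searched, so an overlap with them was not tested. These are letter matches in short windows and say nothing of binding.

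**Figure D1:**
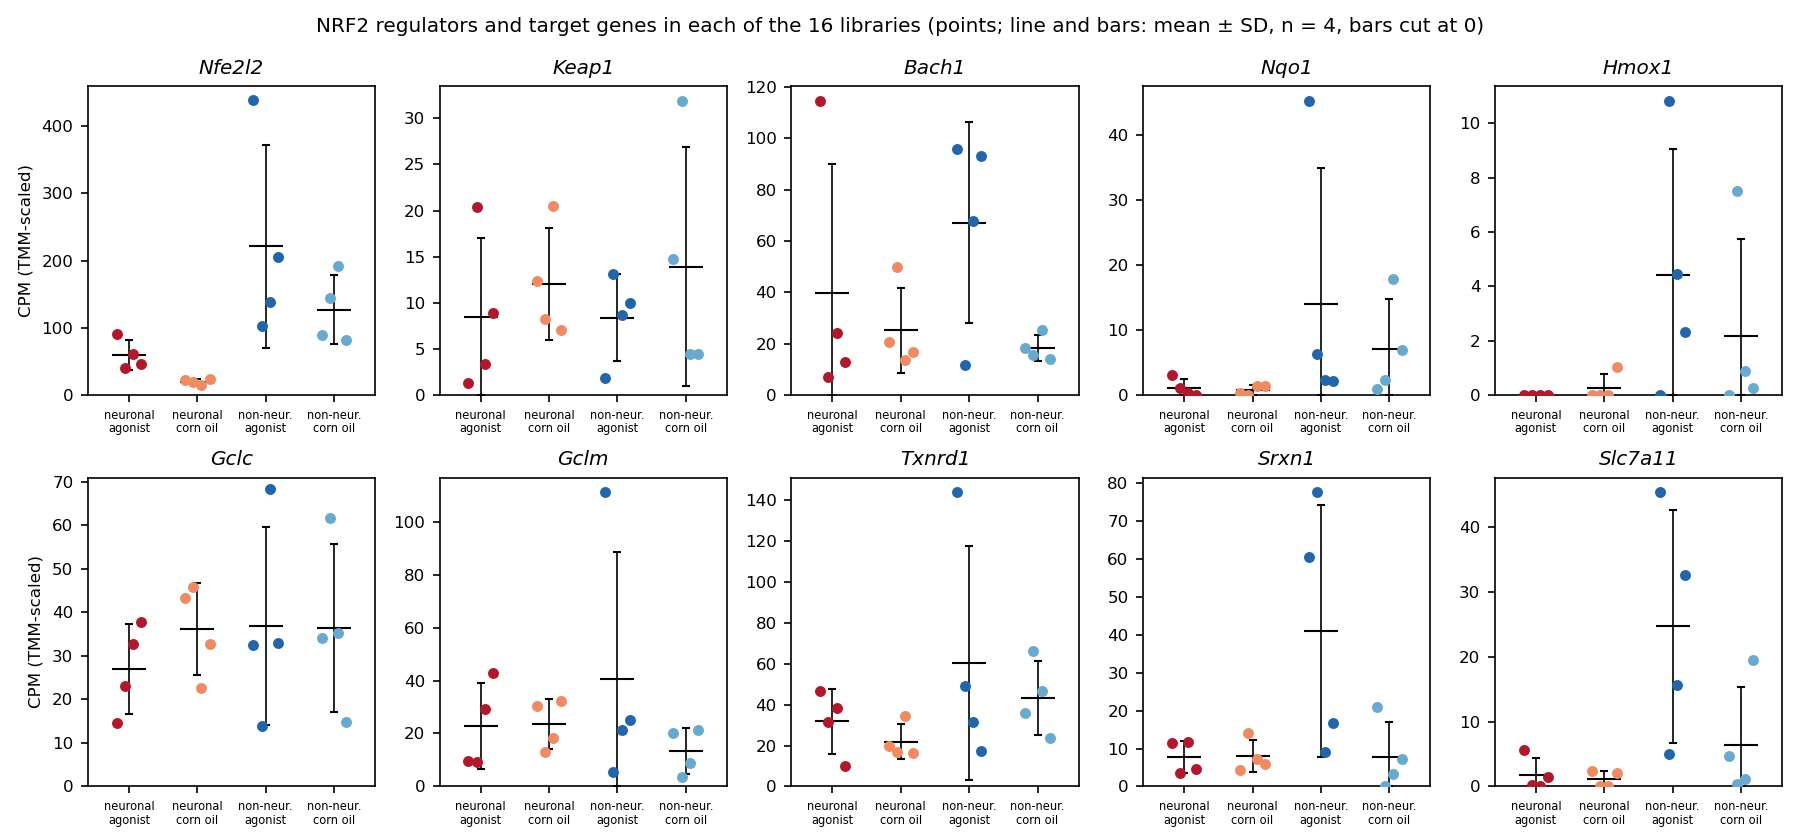
Level of each of the 10 genes in CPM scaled by TMM (trimmed mean of M-values), 1 point per library, with the mean and SD of the 4 libraries of a group (bars cut at 0). Neuronal Nfe2l2 lies between 40.3 and 90.8 CPM after agonist and between 14.5 and 23.8 CPM after corn oil, while the agonist and corn oil ranges of the other 9 genes overlap in both populations.

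In neurons Nfe2l2 (ENSMUSG00000015839, protein-coding, chr2:75675513-75704641, minus strand, GRCm38) stood about 3 times as high after agonist. It was at 90.8, 40.3, 61.0 and 46.3 CPM after agonist, against 22.0, 19.5, 14.5 and 23.8 CPM after corn oil. The lowest agonist library was above the highest corn oil library. The means were 59.6 ± 22.5 CPM after agonist and 19.9 ± 4.03 CPM after corn oil (SD, n = 4 each), and the log2 fold change was 1.58 (SE 0.39), a fold of 2.98. Without neuronal agonist library 1, which held the highest value, the log2 fold change was 1.3. Of all 14182 genes tested in this contrast, 3.64% had groups that did not overlap (1.47% with agonist higher and 2.16% with agonist lower), and edgeR called 0 genes, or 0%, at an adjusted p under 0.05. At an unadjusted p under 0.05 there were 711 of these 14182 genes, where a share of about 0.05 would pass if no gene differed. DESeq2 called 24. Beside it, smooth muscle markers summed to 224 to 670 CPM in neuronal agonist libraries and 272 to 1104 CPM in neuronal corn oil libraries, epithelial markers to 4.71 to 38.3 CPM and 19.8 to 111 CPM, and macrophage markers to 3.86 to 19.4 CPM and 4.26 to 12.01 CPM, with 6 of 8 macrophage genes above 0 in each group. Those ranges overlapped. The 3 markers of interstitial cells of Cajal, all above 0, summed to 328 to 461 CPM in neuronal agonist libraries and 476 to 572 CPM in neuronal corn oil libraries, with no overlap. The number of genes above 0 was 17293 to 21247 after agonist and 21063 to 26379 after corn oil. The part of these markers and of the number of genes in the Nfe2l2 values was not tested.

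In non-neuronal nuclei the Nfe2l2 groups overlapped. The values were 439, 102, 138 and 206 CPM after agonist, against 89.05, 144.5, 192 and 81.8 CPM after corn oil. Non-neuronal agonist library 1 was the highest of all 16 libraries. The log2 fold change was 0.84 (SE 0.48, edgeR adjusted p = 0.954), and 0.25 without that library. The response in neuronal nuclei exceeded that in non-neuronal nuclei by 0.78 on the log2 scale (SE 0.63), a description with no test, since the neuronal values chose the gene.

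Across the 4 groups, the mean of Nfe2l2 was lowest in neuronal nuclei after corn oil (19.9 CPM), then neuronal nuclei after agonist (59.6 CPM), non-neuronal nuclei after corn oil (127 ± 51.7 CPM) and non-neuronal nuclei after agonist (221 ± 151 CPM). Neuronal agonist and non-neuronal corn oil libraries met in range, at up to 90.8 and from 81.8 CPM. The 2 non-neuronal groups overlapped too, so the neuronal corn oil group alone stood clear of its neighbour in this order.

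Keap1 (chr9:21229730-21239361, minus strand), the negative regulator of NRF2, was low and scattered. It was at 1.26, 20.4, 3.37 and 8.88 CPM in neuronal agonist libraries, against 12.3, 8.21, 20.5 and 7.06 CPM in neuronal corn oil libraries. The groups overlapped, with a log2 fold change of -0.50 (SE 0.79). In non-neuronal nuclei the values were 1.89, 13.1, 8.63 and 9.95 CPM after agonist, against 14.8, 31.9, 4.49 and 4.40 CPM after corn oil (log2 fold change -0.70, SE 1.1, adjusted p = 0.988). Keap1 shares 510 exonic bases with Gm16754 on the opposite strand, and its expected count was not whole in 14 of 16 libraries, so its level is uncertain.

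Bach1 (chr16:87698945-87733346, plus strand), the repressor that competes with NRF2, was at 115, 7.00, 24.1 and 12.8 CPM in neuronal agonist libraries. Neuronal corn oil libraries had 20.7, 49.8, 13.5 and 16.7 CPM. Library 1 of the agonist group decided the sign of the difference: the log2 fold change was 0.66 (SE 0.77) with it and -0.79 without it. In non-neuronal nuclei 3 of 4 agonist libraries were above all corn oil libraries, at 96.0, 11.7, 68.0 and 93.1 CPM after agonist, against 18.3, 15.4, 25.4 and 14.0 CPM after corn oil. The log2 fold change there was 1.92 (SE 0.70) and did not pass (adjusted p = 0.954, and 0.231 to 1 over the alternatives).

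Of the 9 genes that could be tested in non-neuronal nuclei, 0 were called, against 0.0135% of 14846 genes (2 genes by edgeR, and 140 by DESeq2). At an unadjusted p under 0.05 there were 715 of all genes, where a share of about 0.05 would pass if no gene differed. DESeq2 called 0 of the 9 as well. Agonist and corn oil libraries did not overlap for 0 of the 9, against 3.42% of genes (1.25% with agonist higher and 2.17% with agonist lower). Their log2 fold changes were above 0 in 8 of 9, beside 55.7% of all genes tested. Their median was 1.05 beside 0.13 over all genes tested. Scaling by library size alone gave medians of 0.45 and -0.28. The median of the members was 0.311 without non-neuronal agonist library 1 and 0.562 without the 2 libraries over 30% mitochondrial. Genes above 0 numbered 19683 to 22411 in non-neuronal agonist libraries and 22958 to 27705 in non-neuronal corn oil libraries, with no overlap, and their part in these values was not tested.

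For the glutathione genes, agonist and corn oil ranges overlapped in both populations. Gclc (chr9:77754535-77794485, plus strand) encodes the catalytic subunit of glutamate-cysteine ligase, the first enzyme of glutathione synthesis. It was at 14.6, 23.0, 32.7 and 37.7 CPM in neuronal agonist libraries, against 43.2, 45.9, 22.7 and 32.7 CPM in neuronal corn oil libraries (log2 fold change -0.42, SE 0.43). In non-neuronal nuclei it was at 32.5, 14.0, 68.2 and 32.9 CPM after agonist, against 34.0, 61.6, 35.3 and 14.8 CPM after corn oil. The groups overlapped in both populations, and in non-neuronal nuclei the log2 fold change was 0.04 (SE 0.70, adjusted p = 0.994; 95% interval -1.34 to 1.42).

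Gclm (chr3:122245557-122270732, plus strand) encodes the modifier subunit of the same enzyme. It was at 9.58, 9.41, 29.1 and 43.0 CPM in neuronal agonist libraries, against 30.4, 12.8, 18.1 and 32.4 CPM in neuronal corn oil libraries (log2 fold change -0.05, SE 0.58). Non-neuronal agonist libraries had 111, 5.42, 21.2 and 25.2 CPM, against 20.1, 3.75, 8.67 and 21.2 CPM in non-neuronal corn oil libraries. The first of these agonist libraries was the highest of all 16, and the log2 fold change of 1.65 (SE 0.95, adjusted p = 0.954) became 0.38 without it. Gclm shares up to 296 exonic bases with Gm17494 or Gm6061, but its expected count was whole in all 16 libraries. How reads were assigned there was not tested.

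Slc7a11 (chr3:49892526-50443614, minus strand), the cystine importer xCT, was almost absent from neuronal libraries. Its levels there were 5.55, 0.219, 0 and 1.39 CPM after agonist (28 counts in all) and 2.36, 0, 0 and 2.09 CPM after corn oil (17 counts), and it was not tested. In non-neuronal nuclei it was at 45.3, 4.96, 15.7 and 32.6 CPM after agonist, against 4.73, 0.375, 1.20 and 19.4 CPM after corn oil. The ranges overlapped, and the log2 fold change of 1.98 (SE 1.18) did not pass (adjusted p = 0.954; 95% interval -0.33 to 4.29). It was 1.47 without non-neuronal agonist library 1 and 3.58 without non-neuronal corn oil library 4. The expected count of Slc7a11 was not whole in 3 libraries.

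Of the thiol reductases, Txnrd1 (chr10:82833951-82897712, plus strand) encodes cytosolic thioredoxin reductase. It was at 46.9, 31.7, 38.4 and 9.99 CPM in neuronal agonist libraries, against 19.9, 16.9, 34.3 and 16.5 CPM in neuronal corn oil libraries. The groups overlapped (log2 fold change 0.53, SE 0.51). Agonist library 4 was the lowest of all 16, and agonist library 2, at 31.7 CPM, was also below corn oil library 3, at 34.3 CPM. In non-neuronal nuclei Txnrd1 was at 144, 49.2, 31.6 and 17.1 CPM after agonist, against 35.8, 66.5, 46.7 and 23.8 CPM after corn oil. The log2 fold change of 0.52 (SE 0.69, adjusted p = 0.983) was -0.39 without non-neuronal agonist library 1.

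Srxn1 (chr2:152105516-152111376, plus strand) encodes sulfiredoxin, which repairs overoxidised peroxiredoxins. Neuronal libraries gave nearly the same mean in both groups, 7.81 ± 4.30 CPM after agonist and 7.96 ± 4.26 CPM after corn oil (SD, n = 4 each). The values behind them were 11.3, 3.50, 11.7 and 4.72 CPM after agonist and 4.45, 14.1, 7.25 and 6.01 CPM after corn oil, with a log2 fold change of -0.03 (SE 0.69). In non-neuronal nuclei Srxn1 had the largest log2 fold change of the 9 genes tested, 2.44 (SE 1.16, adjusted p = 0.954), with 60.5, 77.6, 9.15 and 16.7 CPM after agonist, against 21.0, 0, 3.29 and 7.25 CPM after corn oil. The 2 highest libraries were the 2 with over 30% mitochondrial counts, and without them the log2 fold change was 0.72. The part of the mitochondrial share in this difference was not tested.

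Nqo1 (chr8:107388225-107403206, minus strand) encodes the quinone reductase often used as a readout of NRF2. Neuronal agonist libraries held 12, 5, 1 and 0 counts, against 1, 0, 6 and 5 counts in neuronal corn oil libraries, and the gene was below the count filter. In non-neuronal nuclei it was at 45.3, 6.32, 2.35 and 2.08 CPM after agonist, against 0.888, 2.25, 17.9 and 6.99 CPM after corn oil. Library 1 of the agonist group set the direction: the log2 fold change was 1.05 (SE 1.3, adjusted p = 0.983) with it and -0.94 without it.

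Hmox1 (chr8:75093621-75100589, plus strand) encodes heme oxygenase-1, which opens the heme ring and is induced when BACH1 leaves its sites. It had 0 counts in all 4 neuronal agonist libraries, which allows up to 3 counts, or 0.208 CPM, over the group, and 0, 0, 0 and 4 counts in the neuronal corn oil libraries. Non-neuronal libraries held 0, 24, 17 and 10 counts after agonist and 0, 20, 3 and 1 counts after corn oil. In the fits of all libraries Hmox1 was below the filter in every contrast and was not tested by edgeR. In some fits with fewer libraries it passed the filter, and it was not called there. Intervals and limits of this kind cover counting error only.

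**Figure D2:**
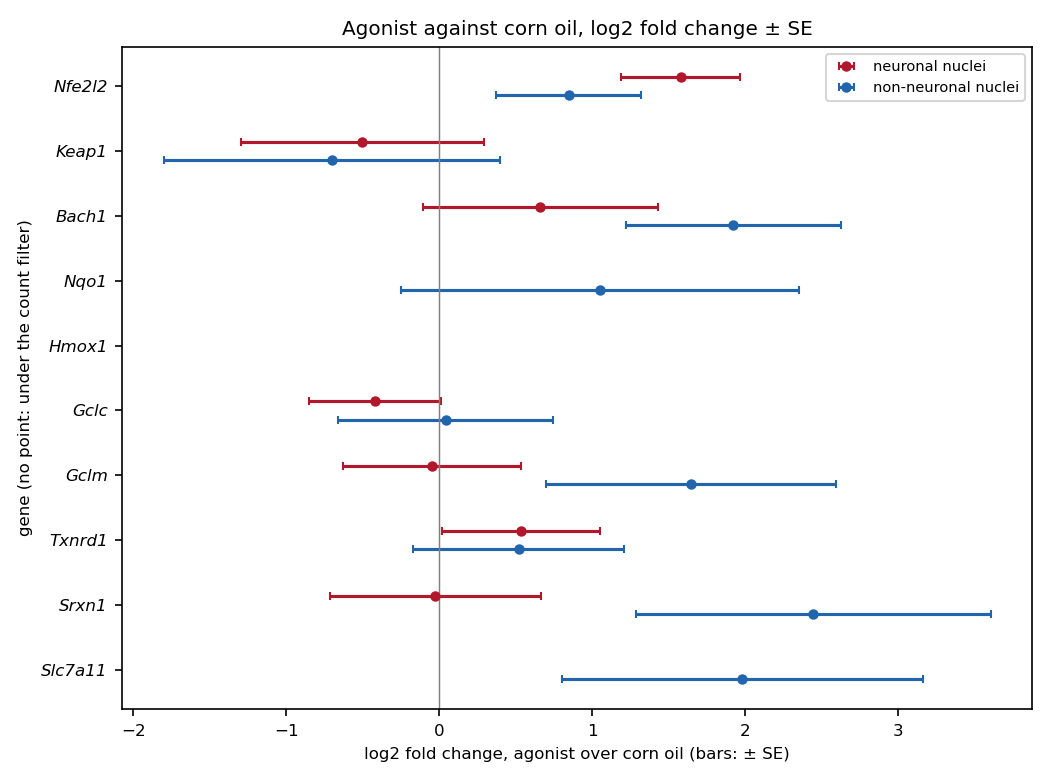
Log2 fold change of agonist over corn oil with its SE for each gene in neuronal and in non-neuronal nuclei (n = 4 against 4 libraries); genes below the count filter have no point. Neuronal Nfe2l2 is at 1.58, and the other 6 neuronal points lie between -0.50 and 0.66, while 8 of the 9 non-neuronal points lie above 0 with SEs of 0.48 to 1.3.

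The difference of the agonist response between the populations was tested for the 8 genes other than Nfe2l2, and 0 were called. The background was 0% of 18566 genes by edgeR (1484 at an unadjusted p under 0.05; 154 by DESeq2). The difference, neuronal minus non-neuronal, was below 0 for 6 of the 8, while 51.2% of all genes were above 0. Srxn1 was at -2.39 (SE 1.40, adjusted p = 0.702; 95% interval -5.14 to 0.36), and at -3.54 to -1.97 with 1 library left out. Gclm was at -1.64 (SE 1.15, adjusted p = 0.773), and at -2.14 to -0.41 with 1 library left out, the upper end without non-neuronal agonist library 1. Slc7a11 was at -1.26 (SE 1.99, adjusted p = 0.933), with a range of -3.02 (without neuronal agonist library 1) to -0.60 (without neuronal corn oil library 1). Bach1 was at -1.22 (SE 1.07, adjusted p = 0.839), with a range of -2.73 (without neuronal agonist library 1) to -0.67 (without neuronal corn oil library 2). Nqo1 was at -0.47 (SE 2.05, adjusted p = 0.985) and Gclc at -0.44 (SE 0.84, adjusted p = 0.951), while Keap1 was at 0.22 (SE 1.37, adjusted p = 0.993) and Txnrd1 at 0.05 (SE 0.89, adjusted p = 1). Errors of this size leave room for differences of several fold in at least 1 direction. For Keap1 and Txnrd1 the 95% intervals were -2.46 to 2.9 and -1.7 to 1.8. For Gclm and Bach1 they reached further below 0, at -3.89 to 0.62 and -3.31 to 0.87.

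Nfe2l2 was lower in neuronal than in non-neuronal libraries under both treatments. All 4 neuronal libraries were below all 4 non-neuronal ones after agonist, with a log2 fold change of -1.94 (SE 0.53), and also after corn oil, with -2.57 (SE 0.36). The neuronal libraries of both contrasts chose the gene, so no test is given. Groups did not overlap for 21.6% of genes after agonist (11.7% with neuronal higher and 9.96% with neuronal lower) and for 30.6% after corn oil (15.1% with neuronal higher and 15.5% with neuronal lower). In a bulk library, fewer cells of a type and less RNA per cell cannot be told apart.

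By level over library size alone, neuronal Nfe2l2 was 41.7% of the non-neuronal mean after agonist and 20.9% after corn oil. Smooth muscle markers were at 9.52% after agonist and 8.59% after corn oil, macrophage markers at 6.44% and 6.05%, and epithelial markers at 0.764% and 0.821%. Nqo1 was at 13.3% after agonist and 15.4% after corn oil, and Slc7a11 at 9.42% and 21.8%, which is near smooth muscle after agonist. Gclc and Gclm, in contrast, were at 110% and 102% after agonist and at 127% and 218% after corn oil. Markers of interstitial cells of Cajal were higher in the neuronal libraries, at 172% and 149%; the list holds Etv1, which neurons can also express. How much RNA of other cells the neuronal libraries held beyond these shares was not tested.

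**Figure D3:**
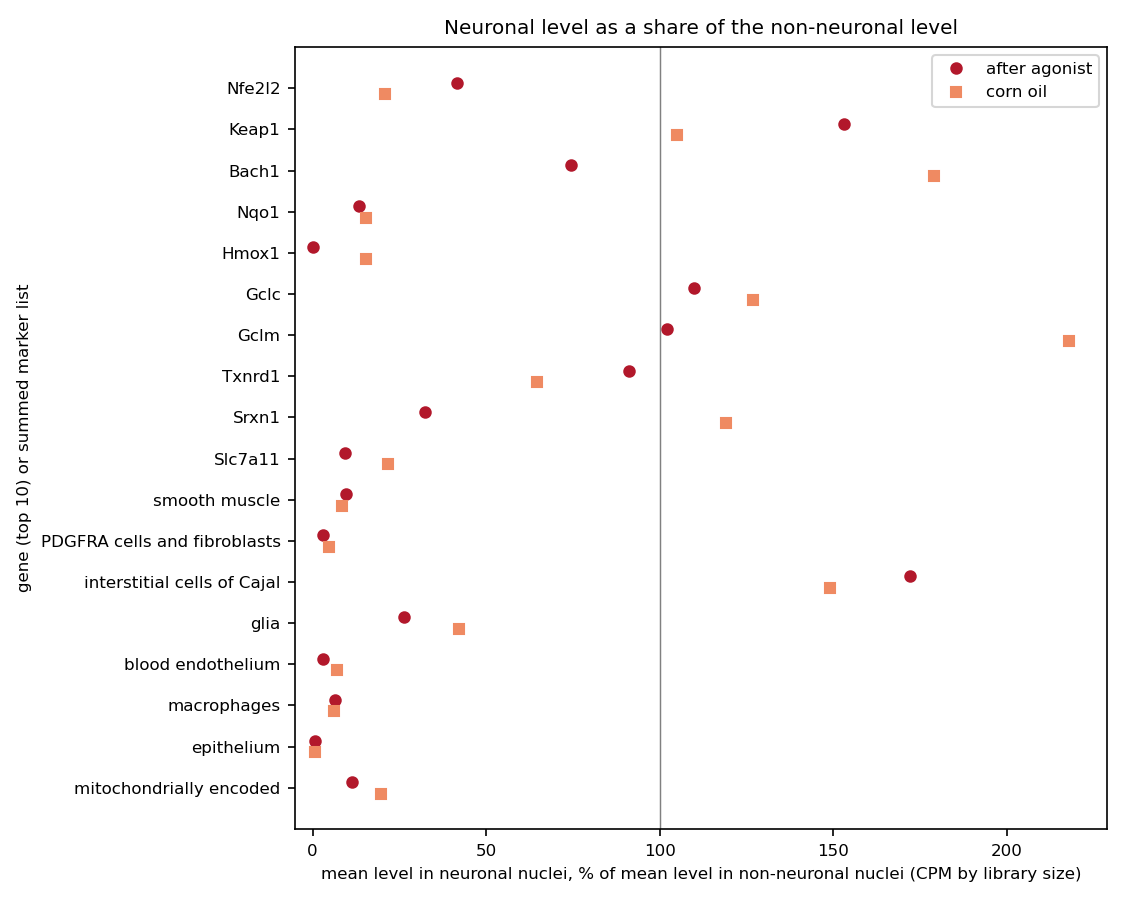
Mean level in neuronal nuclei as a percentage of the mean level in non-neuronal nuclei (CPM over library size), for the 10 genes and for summed markers of other cells and mitochondrially encoded genes, after agonist and after corn oil. Nqo1, Hmox1 and Slc7a11 lie at 0% to 21.8%, Nfe2l2 at 41.7% and 20.9%, and Gclc and Gclm at 102% to 218%.

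After agonist, 7 genes other than Nfe2l2 could be tested between the populations, and 0 passed, against 13.6% of 14065 genes (6.67% higher and 6.97% lower in neuronal nuclei). Slc7a11 had the largest difference, 28 counts over the neuronal libraries and 332 over the non-neuronal ones, with a log2 fold change of -3.83 (SE 1.38, adjusted p = 0.0837). It passed without neuronal agonist library 1 (-5.43, adjusted p = 0.0369) and by DESeq2 (-3.79, adjusted p = 0.0181). Srxn1 was at -2.45 (SE 0.95, adjusted p = 0.111), and at -0.63 without the 2 libraries over 30% mitochondrial. Its adjusted p by DESeq2 was 0.0343. DESeq2, run without the count filter, also called Nqo1 (18 counts over the neuronal and 152 over the non-neuronal libraries, adjusted p = 0.04) and Hmox1 (0 and 51 counts, adjusted p = 0.0161) lower in neuronal nuclei. For Txnrd1 the log2 fold change was -0.98 (SE 0.78, adjusted p = 0.487), for Gclm -0.86 (SE 0.95, adjusted p = 0.638) and for Bach1 -0.83 (SE 0.88, adjusted p = 0.622). Gclc was at -0.44 (SE 0.76, adjusted p = 0.780) and Keap1 at 0.02 (SE 1.16, adjusted p = 0.996).

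After corn oil, 6 genes other than Nfe2l2 could be tested and 0 passed, against 25.4% of 15285 genes (11.8% higher and 13.5% lower in neuronal nuclei). DESeq2, without the filter, called Nqo1 lower in neuronal nuclei (12 counts over the neuronal and 96 over the non-neuronal libraries, adjusted p = 0.0385). Txnrd1 was at 21.9 ± 8.42 CPM in neuronal nuclei and 43.2 ± 18.1 CPM in the non-neuronal group (SD, n = 4 each), with a log2 fold change of -0.89 (SE 0.45, adjusted p = 0.177). Gclm was at 23.4 ± 9.48 CPM in neuronal nuclei and 13.4 ± 8.60 CPM in non-neuronal nuclei (log2 fold change 0.89, SE 0.61, adjusted p = 0.333). Bach1 followed at 0.55 (SE 0.52, adjusted p = 0.5). Gclc had nearly equal means, 36.1 ± 10.6 CPM in neuronal nuclei and 36.4 ± 19.2 CPM in non-neuronal nuclei, with a 95% interval of -0.83 to 0.98 on the log2 scale (adjusted p = 0.931). Keap1 was at -0.13 (SE 0.74, adjusted p = 0.926) and Srxn1 at 0.10 (SE 1.02, adjusted p = 0.960).

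**Figure D4:**
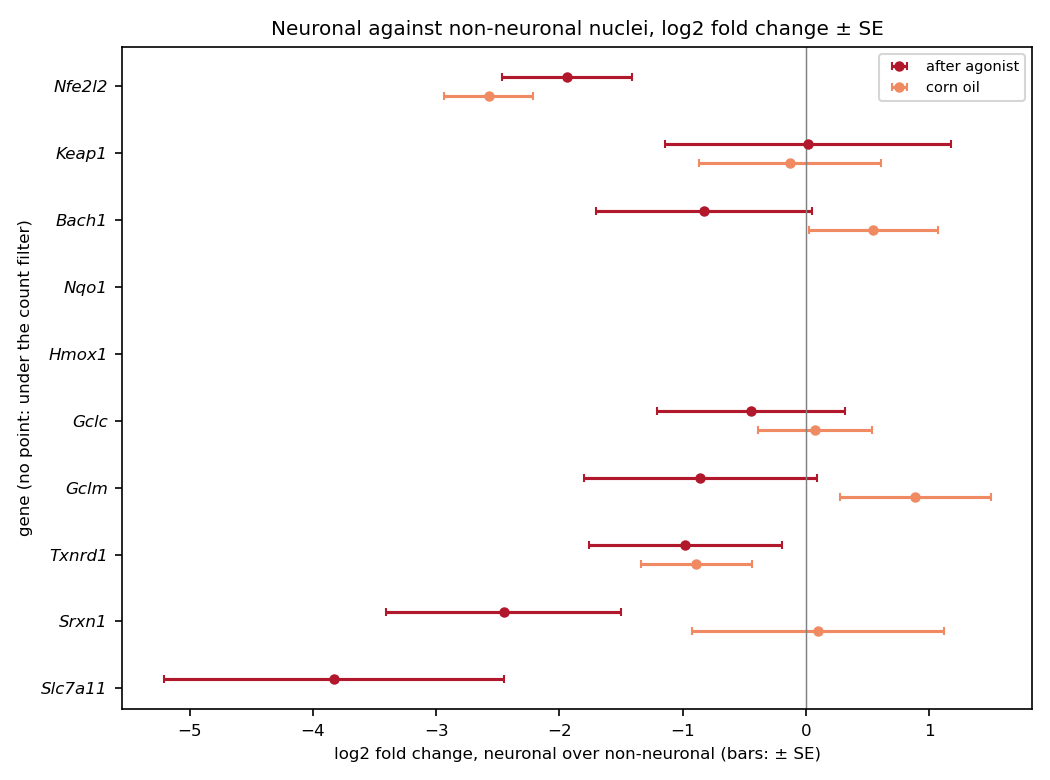
Log2 fold change of neuronal over non-neuronal nuclei with its SE for each gene, after agonist and after corn oil (n = 4 against 4 libraries); genes below the count filter have no point. Nfe2l2 is at -1.94 and -2.57, Slc7a11 at -3.83 after agonist, and Gclc and Keap1 lie within 0.44 of 0 under both treatments.

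Levels per kilobase of exon place the genes beside each other. In neuronal nuclei after agonist, Nfe2l2 was highest at 15.7 CPM per kb, ahead of Gclc at 7.17 and Bach1 at 6.42 CPM per kb. In neuronal nuclei after corn oil the order was Gclc at 9.59, Nfe2l2 at 5.25 and Bach1 at 4.08 CPM per kb. Non-neuronal nuclei had Nfe2l2 first under both treatments, at 58.3 CPM per kb after agonist and 33.4 CPM per kb after corn oil. Slc7a11 was the lowest of the genes above 0 in neuronal nuclei, at 0.128 CPM per kb after agonist and 0.0799 CPM per kb after corn oil.

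Over the 16 libraries and 18565 other genes, the log2 levels most like those of Nfe2l2 were those of Vdr, the vitamin D receptor (Pearson r = 0.919, Spearman rho = 0.894). Next came Gm43305 (r = 0.910), Suclg2, a subunit of succinyl-CoA ligase (r = 0.902), Rab1a, a GTPase of transport from the endoplasmic reticulum to the Golgi (r = 0.901), and Anxa4, an annexin (r = 0.899). Among the other members, r was 0.736 for Nqo1, 0.669 for Slc7a11, 0.611 for Txnrd1, 0.474 for Bach1, 0.223 for Srxn1, 0.0522 for Gclc, 0.0508 for Gclm and -0.35 for Keap1. The 16 libraries are of 2 populations, and all genes share their depth and composition. No r was computed within a population, and these values are a description.

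A wider list of 50 genes of the pathway put these values beside further regulators and targets. Agonist against corn oil gave 0 calls among the 40 genes tested in neuronal nuclei, with a median log2 fold change of -0.01 beside 0.08 over all genes. In non-neuronal nuclei there were 0 calls among 43, with 30 above 0 (55.7% of all genes were) and a median of 0.68 beside 0.13. The difference between the populations gave 0 calls among 46.

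Between the populations after agonist, 5 of the 41 wider genes tested were lower in neuronal nuclei and 0 were higher, 12.2% called beside 13.6% of all genes. Txnip, an inhibitor of thioredoxin, was at 35.6 ± 15.8 CPM in neuronal nuclei and 339 ± 104.5 CPM in the non-neuronal group (SD, n = 4 each), a log2 fold change of -3.27 (SE 0.49, edgeR adjusted p = 0.00062). It passed under all 16 alternatives, with adjusted p of at most 0.0045. The other 4 lost their call without non-neuronal agonist library 1. Fth1, the ferritin heavy chain, was at 28.2 ± 19.4 CPM in neuronal nuclei and 472.5 ± 696.5 CPM in non-neuronal nuclei, with 1515 CPM in that library. Its log2 fold change was -4.11 (SE 0.97, adjusted p = 0.0126), and -2.18 (adjusted p = 0.0563) without that library. Slc40a1, the iron exporter ferroportin, was at -4.78 (SE 1.13, adjusted p = 0.0107), and at -2.90 (adjusted p = 0.0978) without it. Prdx1, a peroxiredoxin, was at -3.25 (SE 0.92, adjusted p = 0.0279), and at -1.71 (adjusted p = 0.26) without it. Glrx, a glutaredoxin, was at -3.11 (SE 0.98, adjusted p = 0.0463), and at -1.23 (adjusted p = 0.481) without it. Leaving out 1 neuronal agonist library also ended calls: that of Glrx without library 1, 2, 3 or 4 (adjusted p = 0.101, 0.107, 0.103 and 0.081, at log2 fold changes of -2.92, -3.07, -3.08 and -3.24), that of Prdx1 without library 1, 2 or 3 (adjusted p = 0.0678, 0.0736 and 0.0759, at -2.99, -3.17 and -3.09), and that of Fth1 without library 3 or 4 (adjusted p = 0.0559 and 0.0547, at -3.84 and -4.36).

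After corn oil, 3 of 42 wider genes were higher and 6 lower in neuronal nuclei, 21.4% beside 25.4% of all genes. Of the thioredoxin genes, 4 of the 5 tested were lower, with a median log2 fold change of -2.02 beside -0.11 over all genes. The same list had 2 of 5 lower after agonist. Among the other roles after corn oil, 2 of 9 regulators were higher. Of 8 glutathione genes 1 was higher and 1 lower, and of 6 heme and iron genes 1 was lower. Calls numbered 0 among 6 NADPH supply genes, 5 quinone, carbonyl and other targets, and 3 other antioxidant enzymes. Txnip was at 30.9 ± 15.4 CPM in neuronal nuclei and 345 ± 55.8 CPM in non-neuronal nuclei (log2 fold change -3.38, SE 0.35, edgeR adjusted p = 2.93e-05). Prdx6, a peroxiredoxin, was at -2.41 (SE 0.58, adjusted p = 0.0077), thioredoxin itself, Txn1, at -2.02 (SE 0.58, adjusted p = 0.0197) and Prdx1 at -1.68 (SE 0.44, adjusted p = 0.0126). The Txn1 call ended without neuronal corn oil library 1 (-1.87, adjusted p = 0.0711) or 2 (-1.82, adjusted p = 0.0675), and that of Prdx1 without library 1 (-1.56, adjusted p = 0.0521). Both calls also ended in the edgeR fit of all 4 groups (adjusted p = 0.17 for Txn1 and 0.102 for Prdx1). Fth1, Prdx1, Prdx6 and Txn1 have processed pseudogenes between which RSEM can divide reads, and their counts are uncertain to that extent.

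Gpx2, the glutathione peroxidase of gut epithelium, was at 0.487 ± 0.812 CPM in neuronal nuclei and 23.1 ± 11.2 CPM in non-neuronal nuclei after corn oil (log2 fold change -5.35, SE 1.09, adjusted p = 0.00265). Epithelial markers summed to 19.8 to 111 CPM in the same neuronal libraries and 1933 to 13330 CPM in the non-neuronal ones, with all 8 markers above 0, and their part in this difference was not tested. Slc40a1 was at -2.65 (SE 0.64, adjusted p = 0.00735), and its call ended in the edgeR fit of all 4 groups (-2.73, adjusted p = 0.0529). The 3 genes higher in neuronal nuclei were Abcc1, an exporter of glutathione conjugates, Mafg, a small MAF partner of NRF2, and Gsk3b, a kinase that marks NRF2 for degradation apart from KEAP1. Abcc1 was at 143 ± 22.1 CPM in neuronal nuclei and 56.8 ± 9.21 CPM in non-neuronal nuclei (log2 fold change 1.42, SE 0.26, adjusted p = 0.00122). Mafg was at 57.8 ± 15.4 CPM in neuronal nuclei and 23.5 ± 12.7 CPM in non-neuronal nuclei (1.38, SE 0.46, adjusted p = 0.0423), and Gsk3b at 212 ± 11.7 CPM and 115.5 ± 57.3 CPM (0.97, SE 0.30, adjusted p = 0.0291). The Mafg call ended without neuronal corn oil library 1, 2 or 3 (adjusted p = 0.0778, 0.0816 and 0.124, at log2 fold changes of 1.43, 1.40 and 1.24) or non-neuronal corn oil library 3 (adjusted p = 0.0727, at 1.31). The Gsk3b call ended without neuronal corn oil library 1, 2 or 3 (adjusted p = 0.0506, 0.0553 and 0.0705, at 1.03, 1.01 and 0.93) or non-neuronal corn oil library 2 or 3 (adjusted p = 0.0757 and 0.0527, at 0.81 and 0.92). Both calls, of Mafg and of Gsk3b, also ended in the edgeR fit of all 4 groups (adjusted p = 0.115 and 0.111, at 1.3 and 0.88).

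**Figure D5:**
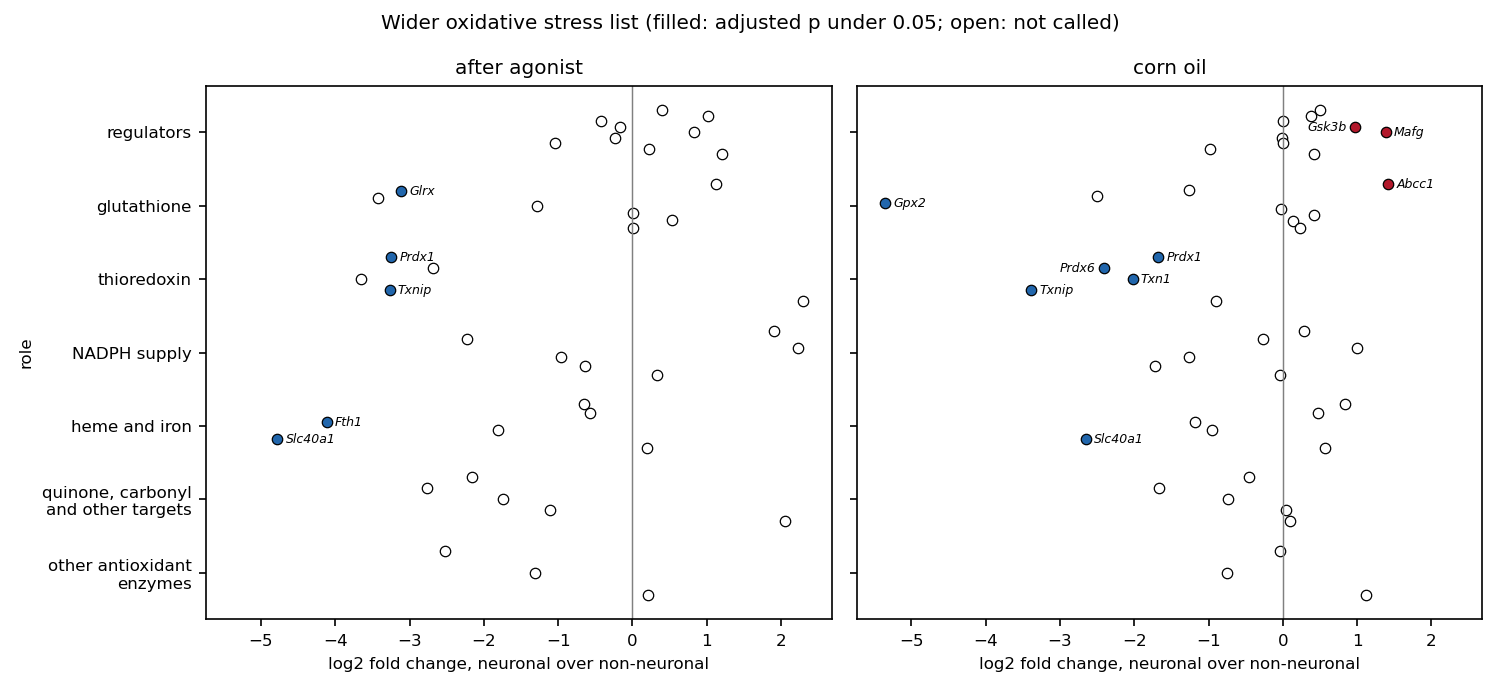
Log2 fold change of neuronal over non-neuronal nuclei for the wider pathway genes by role, after agonist (41 genes) and after corn oil (42 genes); filled points passed at an adjusted p under 0.05 and carry their names. After corn oil 4 of the 5 thioredoxin genes are filled and below 0, while Mafg, Gsk3b and Abcc1 are filled and above 0.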

How the data were processed

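Nuclear RNA of sorted mouse colon nuclei was amplified to full-length double-stranded cDNA, sheared to 200 bases and sequenced as 75-base single-end reads, per the labels' protocols. The deposited values are expected counts per gene, which the authors made with RSEM 1.3.0 and STAR 2.5.2 on GRCm38, per the submitters' processing notes, which also name DESeq2 1.10.1; which annotation release and which strand option were used is not given in the sources used here. Without a stated strand setting, reads of a gene and of an overlapping antisense gene cannot be told apart.

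Expected counts were rounded and tested with edgeR 4.0.16 (quasi-likelihood, robust; R 4.3.3) after TMM scaling and a filter on low counts (minimum 10, total 15), with Benjamini-Hochberg adjustment over all genes tested and a call at an adjusted p under 0.05. Each contrast used its 8 libraries, the difference of responses all 16. Symbols came from GENCODE M21 for 51633 of 51912 ids. Levels are TMM-scaled CPM over the 16 libraries, marker sums CPM over library size, and SE is that of the fitted log2 fold change. The test was run on simulated data first. Those data varied less between libraries than most of the members tested in the non-neuronal response, so nothing is concluded from that run. A filter passed by being high in 1 group favours a difference, so counts over tested genes describe those genes only.

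The members and lists were chosen with earlier results of these data known. All 10 members are named in every comparison, and of the wider list those called, at most 10 a comparison by adjusted p. Members get no p in the neuronal agonist contrast. Alternatives were DESeq2 size factors, scaling by library size, removal of mitochondrial genes, no filter, DESeq2 1.42.0, a replicate block, a fit of all 4 groups, leaving out the 2 libraries over 30% mitochondrial, and leaving out each library.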

Additional observations from a re-analysis of the deposited data

Results flagged for a closer look

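In 40 sets of 4 libraries (10 genes in 4 groups), 4 held a library far from the other 3 by Dixon's ratio; chance flags about 1 set in 20. Bach1 was at 115 CPM in neuronal agonist library 1, with the next library of the group at 24.1 CPM. Nqo1 was at 45.3 CPM in non-neuronal agonist library 1, with the next at 6.32 CPM. Hmox1 was at 1.05 CPM (4 counts) in neuronal corn oil library 4, with the others at 0, and at 7.51 CPM in non-neuronal corn oil library 2, with the next at 0.897 CPM.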

How the results depend on the processing

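Neuronal Nfe2l2 had log2 fold changes of agonist over corn oil between 1.3 and 1.72 under the 15 alternatives. These fits reuse the libraries that chose the gene, so its kept direction is a description and no independent support. With Nfe2l2 left out, the count of members called between populations after agonist, 0 in the edgeR fit, was 4 with DESeq2 (Slc7a11, Srxn1, Nqo1 and Hmox1), 1 with the replicate block (Slc7a11, adjusted p = 0.0379) and 0 to 1 with 1 library left out. After corn oil it was 1 with DESeq2 (Nqo1). Of the wider list, 1 gene was called without the count filter in each agonist contrast, Cat in non-neuronal nuclei (log2 fold change 2.82, adjusted p = 0.0105). After agonist, the 5 wider genes called between populations became 3 with library size scaling, 9 without the filter, 11 with DESeq2, 2 with the replicate block, 14 with all 4 groups in 1 fit, 2 without the 2 libraries over 30% mitochondrial and 2 to 8 with 1 library left out. After corn oil, 9 became 15 with DESeq2, 4 with all 4 groups in 1 fit and 5 to 13 with 1 library left out. Over all genes, DESeq2 called 24, 140 and 154 genes in the neuronal response, the non-neuronal response and their difference, and 4365 and 6700 between populations after agonist and after corn oil. Without the filter there were 152, 88 and 110 in the first 3 and 3324 between populations after agonist. The non-neuronal response gave 11 with all 4 groups in 1 fit, 0 by library size, and 0 to 2 with 1 library left out.

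Signs turned only for values that passed no test, and the cause was not tested. In the non-neuronal response, library size scaling gave Gclc -0.30 and Txnrd1 -0.12, leaving out the 2 mitochondrial libraries gave Nqo1 -1.64 and Txnrd1 -0.82, and leaving out 1 library gave Nqo1 -0.94 to 2.07, Txnrd1 -0.39 to 0.83, Gclc -0.44 to 0.46 and Keap1 -0.99 to 0.16. In the difference of responses, Txnrd1 was -0.05 with DESeq2 size factors and with DESeq2, Keap1 was -0.50 with the replicate block, and Nqo1 was 2.11 without the 2 mitochondrial libraries; with 1 library left out the ranges were -0.28 to 0.93 for Txnrd1, -0.78 to 0.54 for Keap1 and -1.75 to 1.48 for Nqo1. Between populations after agonist, Keap1 was -0.02 with DESeq2 size factors, -0.01 with DESeq2, -0.37 with the block and -0.03 without the mitochondrial libraries, Gclc was 0.12 by library size, and Gclm 0.06 and Txnrd1 0.47 without the mitochondrial libraries; the ranges with 1 library left out were -0.87 to 0.41 for Keap1 and -1.35 to 0.36 for Gclm. After corn oil, Keap1 was 0.03 by library size and 0.24 with the block, Gclc -0.01 with all 4 groups in 1 fit, and the ranges were -0.52 to 0.68 for Keap1, -0.16 to 0.43 for Gclc and -0.33 to 1.25 for Srxn1. Library size scaling moved the median of all genes from 0.13 to -0.28 in the non-neuronal response and from -0.15 to 0.43 between populations after agonist, where the share of calls that were higher went to 67.2%, against 48.9%.

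To look for pairing, each gene's mean in its group was subtracted from the log2 levels, and what remained was correlated between libraries. Same-numbered libraries of 2 groups then correlated between -0.103 and 0.179. For neuronal against non-neuronal libraries of the same treatment the range was -0.0096 to 0.0737. The labels do not say whether same-numbered libraries share mice, and weak correlations between different cell populations cannot decide it. The main fits were unpaired, and the replicate block is given as an alternative only. With 2663738 to 4902303 counts a library, Hmox1, and Nqo1 and Slc7a11 in neuronal nuclei, were too sparse for the edgeR test of all libraries.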

Other observations

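Osgin1, an oxidative stress-induced growth inhibitor and NRF2 target of the wider list, was singled out after its values were seen. It had 225, 2, 0 and 0 counts in the neuronal agonist libraries, against 1, 0, 0 and 0 counts in the neuronal corn oil libraries, so nearly all came from agonist library 1. Htatip2, of the same list and also chosen after its values were seen, had 70, 0, 0 and 7 counts in the neuronal agonist libraries and 3, 0, 2 and 6 counts in the neuronal corn oil libraries. Neuronal agonist library 1 also held the highest neuronal level of Nfe2l2, Bach1, Nqo1, Txnrd1 and Slc7a11 and the lowest of Keap1 and Gclc. Non-neuronal agonist library 1, in turn, was the highest of all 16 for Nfe2l2, Nqo1, Gclm, Txnrd1 and Slc7a11. It had 42.8% mitochondrial counts, and their part in these levels was not tested.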
